A study of Mus musculus with 12 samples.

Results

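Day 3 after stroke was compared with sham surgery in 4 of the 12 libraries of a time course of sorted cortical astrocytes, 2 libraries a group, over every gene of the count table: 15774 genes, of which 15635 held enough counts to be tested. All mice were wild-type C57BL/6J. In the day 3 mice the distal middle cerebral artery was ligated permanently and both common carotid arteries were closed for 7 min, and the cells were collected 3 days later. The sham mice had a skull surface lesion and no arterial occlusion, and the day on which their cells were collected is not stated. The labels do not give the sort marker, and they do not say whether a library holds 1 animal or a pool or whether the replicates are separate animals, so each p-value here measures the spread between these samples, which may be technical.

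Astrocytes feed neurons, take up glutamate and potassium and wrap blood vessels with their end-feet. After an infarct those at its rim enlarge, raise intermediate filaments such as GFAP and vimentin, divide and, with fibroblasts, form the border of the scar, while blood monocytes and neutrophils enter the tissue and microglia multiply. Cytokines that signal through JAK-STAT and NF-kB are known drivers of this reactive state, and the first days after the infarct are the period in which most dividing glia are seen.

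The day 3 libraries held 13006008 and 102571778 counts, and the sham libraries 16575045 and 113052833, replicate 1 first in each group. Levels are given as CPM, counts per 1000000 counts of the library total scaled with TMM factors. The log2 CPM of all genes tested correlated at 0.879 between the day 3 libraries and at 0.929 between the sham libraries, and at 0.704 to 0.7803 between libraries of different groups; genes are not independent replicates. A group of 87 genes was over 8 times higher in replicate 2 than in replicate 1 in every one of the 6 groups, and 1 gene was the other way round. Among them were Gapdh, with 4.24 and 198 CPM at day 3, against 0.956 and 155 CPM in sham, and Eno1, with 0 and 591 CPM at day 3, against 0.717 and 404 CPM in sham. Of the 87 genes 0 were called at day 3 against sham, and 24 were called with the replicate number as a block in the model; the cause of the difference was not tested.

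The 36 astrocyte genes on the marker list held 2.096% and 1.73% of all counts in the day 3 libraries, and 2.86% and 2.36% in the sham libraries, and none of them was at 0 in any of the 4 libraries. Markers of other cells were present in both groups. The 20 monocyte and macrophage markers together made up 0.801% and 0.574% of counts at day 3, against 0.0105% and 0.0378% in sham. Most of the day 3 share was a single gene, Lyz2, at 4108 and 3194 CPM. The 13 microglia markers made up 0.344% and 0.3303% at day 3, against 0.0701% and 0.0806% in sham. Both groups of immune markers were thus higher in each day 3 library than in each sham library. For the 13 fibroblast and meningeal markers the shares were 0.702% and 2.39% at day 3, against 0.0109% and 0.0101% in sham. Most of the day 3 share was the matrix genes Col1a1, Col1a2, Col3a1 and Dcn, with Col3a1 at 1620 and 7576 CPM. Neuron markers went the other way, with 0.107% and 0.194% at day 3, against 1.42% and 1.54% in sham over 20 genes. The 13 oligodendrocyte and myelin markers held 0.203% and 0.183% at day 3, against 1.05% and 0.918% in sham. Most of that share was a single gene, Mbp, at 9070 and 8610 CPM in the sham libraries. In the test described below 10 of these 13 markers did not pass. The shares of the 15 endothelial markers overlapped between the groups, at 0.626% and 0.163% at day 3, against 0.182% and 0.335% in sham. In RNA from many cells, more or fewer cells of a type cannot be told apart from more or less RNA in each cell.

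**Figure D1:**
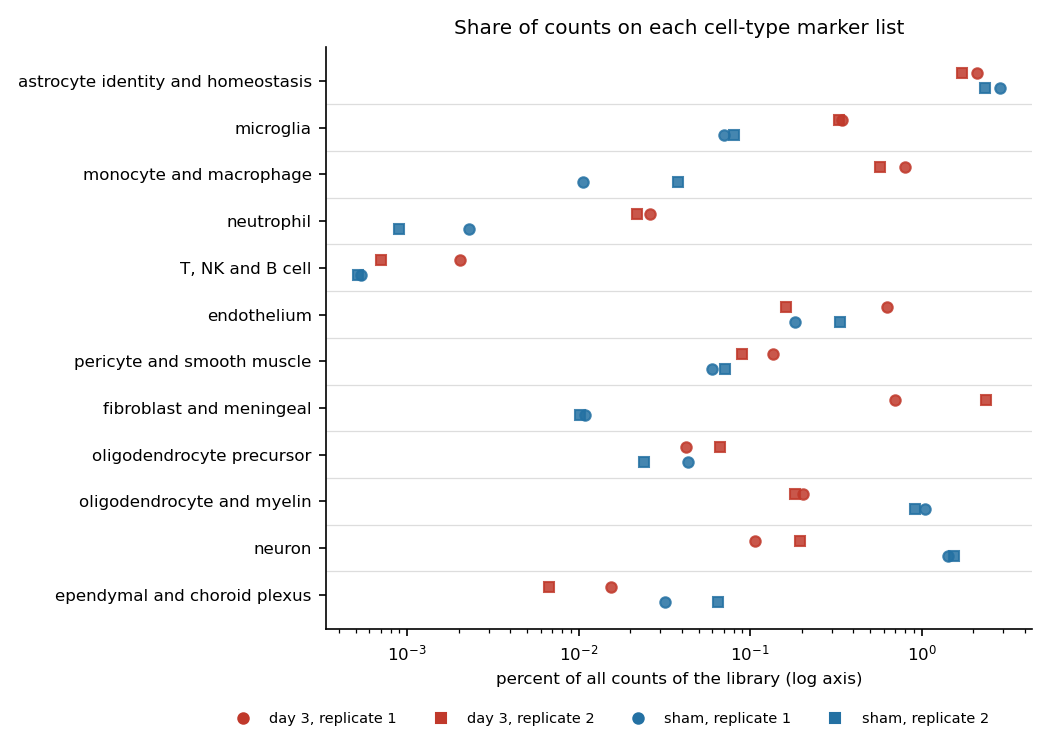
Percent of all counts of a library (log axis) that fell on each of 11 lists of markers of other cells and on the astrocyte list, one point per library, day 3 points (red) above sham points (blue) in each row and replicate 1 as circles and replicate 2 as squares. The summed shares of macrophage, microglia and fibroblast markers were higher in both day 3 libraries. Those of neuron and myelin markers were lower in both, and endothelial shares overlapped. Most of the myelin share was Mbp, and most of the day 3 macrophage share was Lyz2. Most of the day 3 fibroblast share was Col1a1, Col1a2, Col3a1 and Dcn.

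In edgeR's quasi-likelihood test 2815 genes rose at day 3 and 2213 fell, which is 18.0% and 14.2% of the 15635 genes tested and 32.2% together; a gene was called at a Benjamini-Hochberg adjusted p under 0.05. The median log2 fold change over all genes tested was 0.16, and 90% of genes lay between -3.44 and 4.28. Scaling with DESeq2's size factors in place of TMM moved that median by -0.11. No called gene had changed by less than 0.77 on the log2 scale, and 1023 of the genes that rose and 816 of those that fell had changed by at least 3. With 1 library left out the fit called 3180 (day 3 replicate 1), 4144 (day 3 replicate 2), 2952 (sham replicate 1) and 2931 genes (sham replicate 2). In all 5 of these fits 2060 genes (13.2%) were called, 7.82% of the genes tested as higher and 5.35% as lower. The day 3 libraries lay both above or both below the sham libraries in 66.1% of the genes tested. Changes are given in log2 units with their standard error. The number of members called in each list below is to be read against 18.0% higher and 14.2% lower. 

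The genes with the largest rise among those called in all 5 fits, at a mean of at least 10 CPM and without overlap between the groups, are known from phagocytes, extracellular matrix and chemokine signalling. Spon2, a secreted matrix protein also known as mindin, had 23.5 and 36.9 CPM at day 3, against 0.0597 and 0 CPM in sham. Spon2 rose 4252-fold by the depth-corrected ratio of counts (95% counting interval 763 to 167979, adjusted p = 0.000146). Ltbp2, a latent TGF-beta binding protein of microfibrils, had 16.6 and 38.2 CPM at day 3, against 0.0597 and 0 CPM in sham. Ltbp2 rose 4278-fold by the depth-corrected ratio of counts (95% counting interval 767 to 169006, adjusted p = 0.000154). Cst7, an inhibitor of lysosomal cathepsins, had 37.8 and 13.8 CPM at day 3, against 0 and 0.0192 CPM in sham. Cst7 rose 1018-fold by the depth-corrected ratio of counts (95% counting interval 282 to 8413, adjusted p = 0.000201). Each of these was next to absent in sham and clearly present in both day 3 libraries. Cxcl13, the chemokine that attracts B cells, had 17.7 and 14.4 CPM at day 3, against 0.0597 and 0 CPM in sham. Cxcl13 rose 1785-fold by the depth-corrected ratio of counts (95% counting interval 319.97 to 70539.5, adjusted p = 0.000216). Gp49a had 64.2 and 233 CPM at day 3, against 0.119 and 0.07696 CPM in sham (log2 fold change 10.70 ± 1.67, adjusted p = 0.00152) and its near-identical neighbour Lilrb4, an inhibitory receptor of myeloid cells, had 112 and 386 CPM at day 3, against 0.119 and 0.154 CPM in sham. Lilrb4 rose by 10.74 ± 1.27 log2 units (adjusted p = 0.00045). Reads of this pair can be assigned to either gene, so the split between them is uncertain. The same holds for the kininogen genes Kng1, with 2.02 and 21.2 CPM at day 3, against 0 and 0 CPM in sham. Kng1 rose at least 112-fold (adjusted p = 0.00281). Kng2, with 4.87 and 20.1 CPM at day 3, against 0 and 0 CPM in sham. Kng2 rose at least 120.1-fold (adjusted p = 0.002405). The rule also named Cd5l, a macrophage gene (at least 478-fold higher, adjusted p = 0.000126), and Mmp12, macrophage elastase (at least 277-fold higher, adjusted p = 0.000173).

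Of the 10 largest falls under the same rule 9 are given here, with channel and receptor genes of neurons among them. Cacna1i, a T-type calcium channel, had 0.633 and 0.566 CPM at day 3, against 18.1 and 17.5 CPM in sham. Cacna1i fell by 4.89 ± 0.98 log2 units (adjusted p = 0.00484). Kcng1, a modifier subunit of potassium channels, had 0 and 0.639 CPM at day 3, against 11.2 and 14.1 CPM in sham. Kcng1 fell by 5.10 ± 1.27 log2 units (adjusted p = 0.01297). In these channel genes both day 3 libraries were below both sham libraries. Cbln2, a secreted synapse organizer, had 0.127 and 0.539 CPM at day 3, against 15.2 and 6.03 CPM in sham. Cbln2 fell by 4.87 ± 1.04 log2 units (adjusted p = 0.00654). Rxrg, a retinoid X receptor, had 1.58 and 4.08 CPM at day 3, against 73.9 and 90.8 CPM in sham. Rxrg fell by 4.83 ± 0.74 log2 units (adjusted p = 0.00138). Scn4b (log2 fold change -5.71 ± 0.62, adjusted p = 0.000307), Htr7 (log2 fold change -5.13 ± 1.01, adjusted p = 0.00458), Lrfn5 (log2 fold change -4.997 ± 0.88, adjusted p = 0.002703), Ankrd63 (log2 fold change -4.998 ± 1.23, adjusted p = 0.0122) and Sowahb (log2 fold change -4.88 ± 1.07, adjusted p = 0.00736) were the others.

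**Figure D2:**
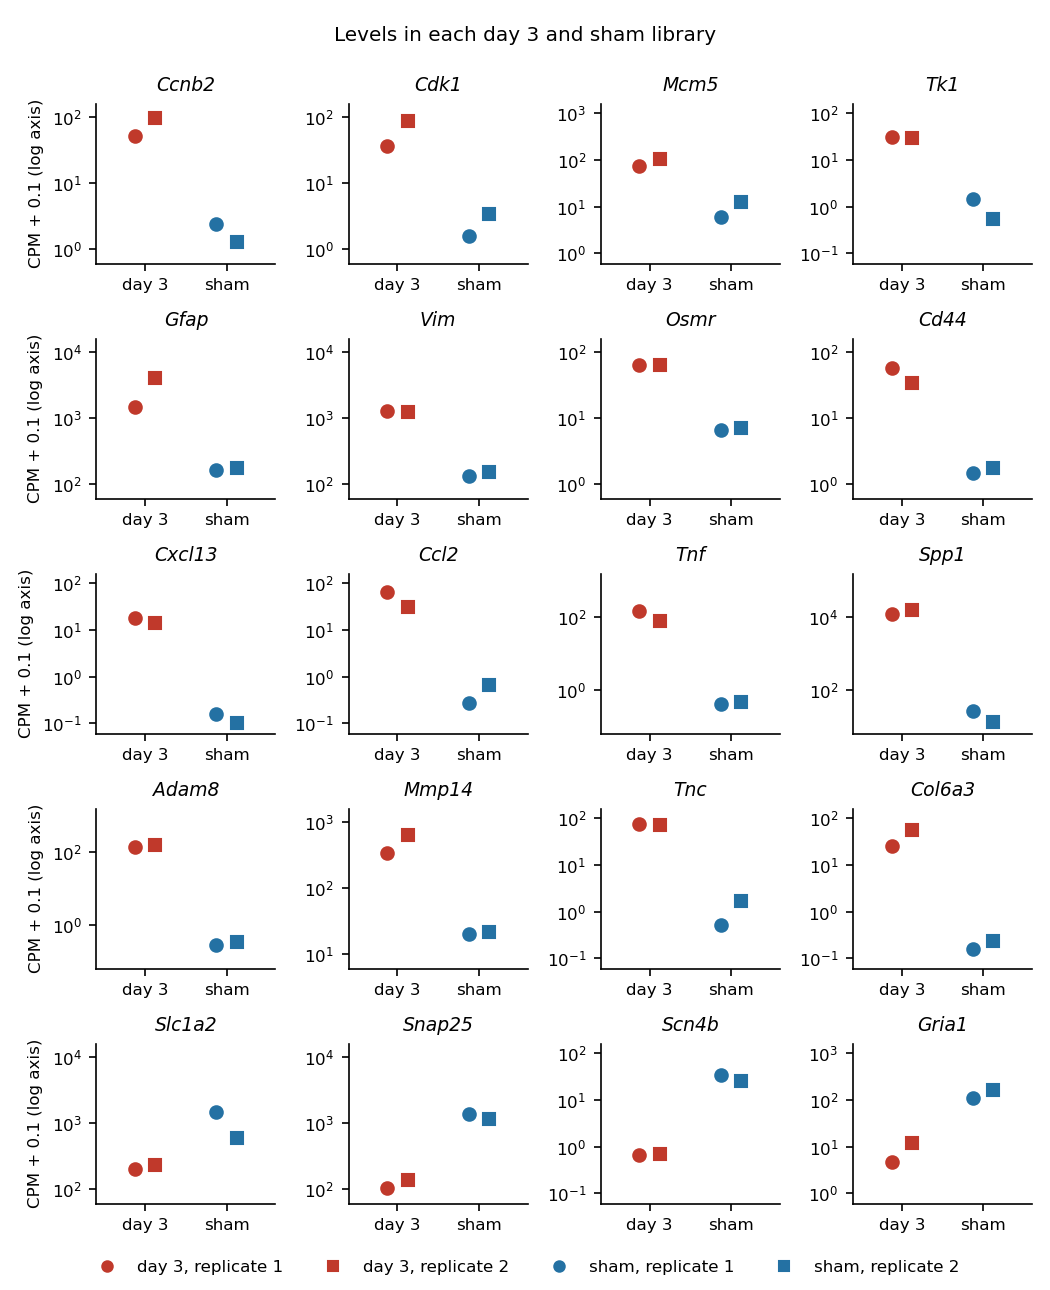
CPM + 0.1 on a log axis of 20 genes in each day 3 library (red, left) and each sham library (blue, right), with replicate 1 as circles and replicate 2 as squares. In the panels of the cell division, reactive, chemokine and matrix genes both day 3 points lie above both sham points, and in the panels of Slc1a2, Snap25, Scn4b and Gria1 both lie below.

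Most of the listed genes of cell division rose. Of 46 genes of mitosis 40 rose, against 18.0% of all genes tested, none fell and 6 did not pass, with a median log2 fold change of 3.75 against 0.16 over all genes tested; 27 were called in all 5 fits, against 7.82% of all genes called higher in all 5. Ccnb2, a cyclin that starts mitosis, had 51.6 and 98.4 CPM at day 3, against 2.27 and 1.202 CPM in sham. Ccnb2 rose by 5.46 ± 0.58 log2 units (adjusted p = 0.000287). Cdk1, the kinase it activates, had 36.01 and 88.5 CPM at day 3, against 1.49 and 3.26 CPM in sham. Cdk1 rose by 4.68 ± 0.77 log2 units (adjusted p = 0.00198). Cenpa, the histone variant of centromeres, had 50.7 and 64.7 CPM at day 3, against 1.61 and 2.46 CPM in sham. Cenpa rose by 4.81 ± 0.50 log2 units (adjusted p = 0.000257). In these genes each day 3 library stood at least 10 times above the higher sham library. Cdc20, an activator of the ligase that ends metaphase, had 67.5 and 140.4 CPM at day 3, against 2.87 and 5.19 CPM in sham. Cdc20 rose by 4.67 ± 0.49 log2 units (adjusted p = 0.000278). Aurkb, a kinase of chromosome segregation, had 34.7 and 40.4 CPM at day 3, against 2.45 and 2.85 CPM in sham. Aurkb rose by 3.82 ± 0.63 log2 units (adjusted p = 0.00193). Mki67, the proliferation antigen, had 35.7 and 38.5 CPM at day 3, against 1.97 and 3.72 CPM in sham. Mki67 rose by 3.69 ± 0.60 log2 units (adjusted p = 0.00184). The members that did not pass were Ncapg (log2 fold change 3.38 ± 1.59, adjusted p = 0.1305, or 0.0106 with the replicate block, or 0.0439 with sham replicate 2 left out), Ect2 (log2 fold change 3.05 ± 1.33, adjusted p = 0.104), Cdc25b (log2 fold change 1.07 ± 0.39, adjusted p = 0.059, or 0.0133 with the replicate block), Kif4 (log2 fold change 0.83 ± 0.69, adjusted p = 0.379), Incenp (log2 fold change 0.30 ± 0.43, adjusted p = 0.619) and Pttg1 (log2 fold change -0.04 ± 0.38, adjusted p = 0.949). The summed shares of the macrophage, microglia and fibroblast markers given above were likewise higher in both day 3 libraries than in both sham libraries, and their part in the rise of the division genes was not tested.

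Many promoters of mitosis genes are known to hold a cell cycle homology region, TTTGAA, and CCAAT boxes, so 3 of them are shown: the 250 bases before the RefSeq start (build GRCm38.p6) of the 3 most increased mitosis genes that hold both motifs and were called in all 5 fits. Capitals mark TTTGAA and CCAAT on either strand (the reverse reads TTCAAA and ATTGG); the 2 motifs do not overlap in their letters. Ccnb2 lies at chr9:70421555-70421804, Cdk1 at chr10:69352913-69353162 and Cdc20 at chr4:118437344-118437593, each on the minus strand.
Ccnb2: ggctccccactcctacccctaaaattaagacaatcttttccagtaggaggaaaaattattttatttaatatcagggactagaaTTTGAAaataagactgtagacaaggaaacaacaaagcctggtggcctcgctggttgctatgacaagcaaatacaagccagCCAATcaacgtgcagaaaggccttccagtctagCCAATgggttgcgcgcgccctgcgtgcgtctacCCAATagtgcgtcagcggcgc
Cdk1: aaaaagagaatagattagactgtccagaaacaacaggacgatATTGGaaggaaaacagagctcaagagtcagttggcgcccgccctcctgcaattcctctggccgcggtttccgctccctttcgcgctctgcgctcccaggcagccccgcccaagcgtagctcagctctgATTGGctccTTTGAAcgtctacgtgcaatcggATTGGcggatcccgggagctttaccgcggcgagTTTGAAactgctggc
Cdc20: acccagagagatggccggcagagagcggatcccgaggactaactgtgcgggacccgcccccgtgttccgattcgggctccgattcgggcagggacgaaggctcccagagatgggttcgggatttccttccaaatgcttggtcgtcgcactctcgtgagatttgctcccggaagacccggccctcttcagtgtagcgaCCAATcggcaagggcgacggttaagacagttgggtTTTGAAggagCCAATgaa
A promoter window was found for 37 of the 46 mitosis genes and for 11693 of the 15635 genes tested. TTTGAA stood in 12 of the mitosis windows (32.4%), against 10.7% of all windows. CCAAT stood in 28 (75.7%), against 35.8%, and both motifs stood in 11 (29.7%), against 4.04%. In the 28 windows found for the 34 DNA replication genes, TTTGAA stood in 14.3%, CCAAT in 57.1% and both in 10.7%. A match is a run of letters and not a shown binding site.

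Genes of DNA replication also rose, with a smaller median change. Of 34 genes 27 rose, none fell and 7 did not pass (median log2 fold change 2.54); 17 (day 3 replicate 2) and 16 (sham replicate 1) rose with that library left out. Tk1, the thymidine kinase of dividing cells, had 30.5 and 29.8 CPM at day 3, against 1.37 and 0.452 CPM in sham. Tk1 rose by 5.11 ± 0.71 log2 units (adjusted p = 0.000878). Cdt1, which loads the replicative helicase, had 19.4 and 30.1 CPM at day 3, against 1.37 and 1.53 CPM in sham. Cdt1 rose by 4.08 ± 0.44 log2 units (adjusted p = 0.000307). Mcm5, a subunit of that helicase, had 74.4 and 106 CPM at day 3, against 5.97 and 12.6 CPM in sham. Mcm5 rose by 3.27 ± 0.42 log2 units (adjusted p = 0.00058). The groups did not overlap in these 3 genes. Pcna, the sliding clamp of the polymerases, had 43.5 and 53.5 CPM at day 3, against 11.8 and 10.4 CPM in sham. Pcna rose by 2.13 ± 0.38 log2 units (adjusted p = 0.00295). Among 26 cyclins of G1, E2F factors and CDK inhibitors 12 rose and none fell; 7 (day 3 replicate 2), 3 (sham replicate 1) and 5 (sham replicate 2) rose with that library left out. Myc had 51.95 and 62.3 CPM at day 3, against 2.81 and 4.95 CPM in sham. Myc rose by 3.86 ± 0.41 log2 units (adjusted p = 0.00027). Cdk2 had 48.98 and 32.7 CPM at day 3, against 5.02 and 4.002 CPM in sham. Cdk2 rose by 3.18 ± 0.48 log2 units (adjusted p = 0.00124). The CDK inhibitor Cdkn1a, a p53 target, had 369 and 89.9 CPM at day 3, against 47.6 and 28.5 CPM in sham. Cdkn1a rose by 2.59 ± 0.77 log2 units (adjusted p = 0.0276, but 0.0817 to 0.253 when day 3 replicate 1, sham replicate 1 or sham replicate 2 was left out). Ccnd1, the D-type cyclin of G1 entry, had 119 and 194 CPM at day 3, against 81.1 and 41.6 CPM in sham. Ccnd1 differed by 1.35 ± 0.50 log2 units (adjusted p = 0.0614, or 0.0244 with the replicate block). Ccnd2 had 99.2 and 226 CPM at day 3, against 255 and 187 CPM in sham. Ccnd2 differed by -0.44 ± 0.55 log2 units (adjusted p = 0.569). Of 20 genes of ribosome biogenesis 8 rose and none fell, among them Gnl3 (log2 fold change 2.29 ± 0.44, adjusted p = 0.00428), Ddx21 (log2 fold change 1.80 ± 0.35, adjusted p = 0.00428) and Npm1 (log2 fold change 1.58 ± 0.31, adjusted p = 0.004702); 5 (day 3 replicate 1), 5 (day 3 replicate 2), 5 (sham replicate 1) and 4 (sham replicate 2) rose with that library left out, and 13 with the replicate block.

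Genes of the reactive astrocyte state rose. Of 13 pan-reactive genes 11 rose and none fell (median log2 fold change 3.61), and of 12 A2-associated genes 11 rose and none fell (3.38). Of 11 A1-associated genes 6 rose and none fell (1.69); 3 (day 3 replicate 1), 3 (sham replicate 1) and 3 (sham replicate 2) rose with that library left out. Cd44, the hyaluronan receptor, had 57.9 and 34.1 CPM at day 3, against 1.37 and 1.68 CPM in sham. Cd44 rose by 4.90 ± 0.43 log2 units (adjusted p = 0.000146). Osmr, the oncostatin M receptor, had 63.5 and 64.7 CPM at day 3, against 6.57 and 7.11 CPM in sham. Osmr rose by 3.23 ± 0.41 log2 units (adjusted p = 0.000556). In both genes the day 3 libraries exceeded the sham libraries. Gfap had 1469 and 4143 CPM at day 3, against 161 and 175 CPM in sham. Gfap rose by 4.06 ± 0.69 log2 units (adjusted p = 0.00237). Vim had 1269.9 and 1238 CPM at day 3, against 132 and 153 CPM in sham. Vim rose by 3.14 ± 0.34 log2 units (adjusted p = 0.000307). Tgm1, a transglutaminase, had 16.1 and 43.6 CPM at day 3, against 0.239 and 0 CPM in sham. Tgm1 rose by 9.07 ± 1.47 log2 units (adjusted p = 0.00184). Cd14, a coreceptor for lipopolysaccharide that myeloid cells also express, had 915 and 236 CPM at day 3, against 9.62 and 4.89 CPM in sham. Cd14 rose by 6.32 ± 0.90 log2 units (adjusted p = 0.000986). Of the A1-associated genes, Serping1, an inhibitor of complement C1, had 229 and 473 CPM at day 3, against 19.5 and 18.4 CPM in sham. Serping1 rose by 4.21 ± 0.47 log2 units (adjusted p = 0.000345). Amigo2 had 8.1 and 3.73 CPM at day 3, against 10.3 and 11.2 CPM in sham. Amigo2 differed by -0.87 ± 0.53 log2 units (adjusted p = 0.235). Timp1, an inhibitor of matrix proteases, did not pass and differed between the sham libraries, with 181 and 384 CPM at day 3, against 1.31 and 228 CPM in sham. Timp1 differed by 1.30 ± 1.33 log2 units (adjusted p = 0.482, or 0.00369 with sham replicate 2 left out).

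Genes of the cytoskeleton and of its links to the membrane rose in 21 of 30 cases and fell in none (median log2 fold change 1.95). Lgals3, a galectin that phagocytes also express, had 719 and 364 CPM at day 3, against 1.67 and 2.29 CPM in sham. Lgals3 rose by 8.08 ± 0.54 log2 units (adjusted p = 9.04e-05). Tubb6, a beta-tubulin, had 404 and 339 CPM at day 3, against 4.54 and 4.18 CPM in sham. Tubb6 rose by 6.41 ± 0.60 log2 units (adjusted p = 0.000154). Anxa2, a membrane-binding annexin, had 577 and 899.9 CPM at day 3, against 56.7 and 73 CPM in sham. Anxa2 rose by 3.51 ± 0.47 log2 units (adjusted p = 0.000778). Each day 3 library was above each sham library. Nes, the intermediate filament nestin, had 155 and 88.2 CPM at day 3, against 31.4 and 31.02 CPM in sham. Nes rose by 1.96 ± 0.45 log2 units (adjusted p = 0.00883, but 0.0537 to 0.0563 when day 3 replicate 1, sham replicate 1 or sham replicate 2 was left out). Tuba1c was higher in replicate 2 in both groups, with 95.6 and 1163 CPM at day 3, against 5.44 and 1229 CPM in sham. Tuba1c differed by 0.03 ± 1.92 log2 units (adjusted p = 0.996).

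Astrocyte genes of the resting state were mostly below sham, few of them past the test. Of 36 genes 9 fell, 1 rose and 26 did not pass, with a median log2 fold change of -1.21; 1 (day 3 replicate 1), 2 (sham replicate 1) and 5 (sham replicate 2) fell with that library left out, and 18 with the replicate block. Gpc5, a glypican, had 7.404 and 16.5 CPM at day 3, against 73.4 and 58.2 CPM in sham (log2 fold change -2.46 ± 0.46, adjusted p = 0.003502) and was the one member called in all 5 fits. Slc6a11, the GABA transporter GAT-3, had 5.19 and 9.39 CPM at day 3, against 39.6 and 43.9 CPM in sham. Slc6a11 fell by 2.51 ± 0.61 log2 units (adjusted p = 0.0113, but 0.07801 with day 3 replicate 1 left out). Slc1a2, the glutamate transporter GLT-1, had 205 and 234 CPM at day 3, against 1478 and 600.4 CPM in sham. Slc1a2 fell by 2.25 ± 0.76 log2 units (adjusted p = 0.0455, but 0.124 to 0.248 when day 3 replicate 1, day 3 replicate 2 or sham replicate 1 was left out). In these genes both day 3 libraries were below both sham libraries. Slc1a3, the glutamate transporter GLAST, had 236 and 261 CPM at day 3, against 603 and 513 CPM in sham. Slc1a3 differed by -1.17 ± 0.44 log2 units (adjusted p = 0.0687, or 0.0373 with the replicate block). Aqp4, the water channel of end-feet, had 47.3 and 61.2 CPM at day 3, against 84.99 and 59.1 CPM in sham. Aqp4 differed by -0.41 ± 0.57 log2 units (adjusted p = 0.615). Aldh1l1, a folate enzyme used as an astrocyte marker, had 77.3 and 332 CPM at day 3, against 149 and 243 CPM in sham. Aldh1l1 differed by 0.07 ± 0.79 log2 units (adjusted p = 0.963). Kcnj10, the potassium channel Kir4.1, had 25.4 and 17.7 CPM at day 3, against 73.5 and 20.2 CPM in sham. Kcnj10 differed by -1.12 ± 0.99 log2 units (adjusted p = 0.413). In Aqp4, Aldh1l1 and Kcnj10 the values of the groups overlapped. Gja1, connexin 43, had 262 and 232 CPM at day 3, against 149 and 84.5 CPM in sham. Gja1 differed by 1.08 ± 0.51 log2 units (adjusted p = 0.131, or 0.0187 with the replicate block). Sox9 had 46.1 and 71.8 CPM at day 3, against 147 and 97.9 CPM in sham. Sox9 differed by -1.05 ± 0.51 log2 units (adjusted p = 0.142). The member that rose was Htra1, a secreted serine protease, with 292 and 799 CPM at day 3, against 201 and 147 CPM in sham. Htra1 rose by 1.65 ± 0.52 log2 units (adjusted p = 0.0337, but 0.0944 to 0.337 when day 3 replicate 2, sham replicate 1 or sham replicate 2 was left out).

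**Figure D3:**
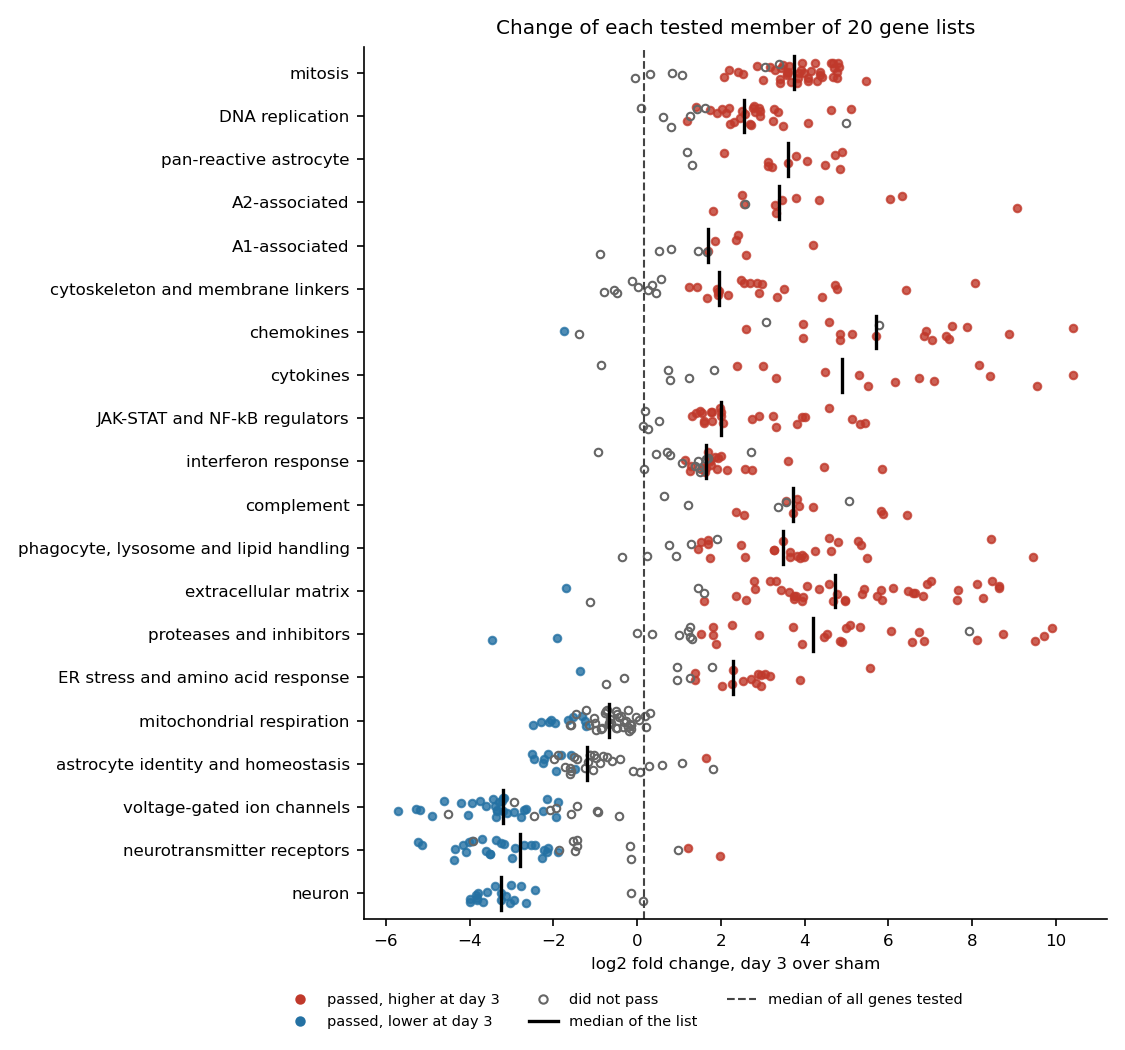
Log2 fold change at day 3 against sham of each tested member of 20 gene lists, one row a list, with filled points for members that passed the test (adjusted p under 0.05; red higher, blue lower), open points for the others and a black bar at the median of the list; members with 0 counts in a group are drawn at their bound. The dashed line marks the median over all 15635 genes tested, 0.16; the medians of the mitosis, matrix and chemokine genes lie to its right, and those of the channel, receptor and neuron genes to its left.

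Chemokine and cytokine genes rose. Of 21 chemokines 17 rose and 1 fell (median log2 fold change 5.70), and of 18 cytokines 13 rose and none fell (4.89). Ccl7, a monocyte attractant, had 67.8 and 24.5 CPM at day 3, against 0.119 and 0.0866 CPM in sham. Ccl7 rose by 8.89 ± 0.83 log2 units (adjusted p = 0.000154). Cxcl1, a neutrophil attractant, had 161 and 52.6 CPM at day 3, against 0.418 and 0.471 CPM in sham. Cxcl1 rose by 7.89 ± 0.79 log2 units (adjusted p = 0.000216). Ccl2, the main ligand of the monocyte receptor CCR2, had 66.5 and 31.3 CPM at day 3, against 0.179 and 0.577 CPM in sham. Ccl2 rose by 6.85 ± 0.67 log2 units (adjusted p = 0.000201). Replicate 1 was the higher day 3 library for each of these 3. Cxcl10, an interferon-induced ligand of CXCR3, had 43.7 and 30.8 CPM at day 3, against 2.09 and 0.635 CPM in sham. Cxcl10 rose by 4.85 ± 0.69 log2 units (adjusted p = 0.000988). The chemokine that fell was Cxcl14, with 40.8 and 66.99 CPM at day 3, against 223 and 136 CPM in sham. Cxcl14 fell by 1.73 ± 0.57 log2 units (adjusted p = 0.0414, but 0.0596 to 0.187 without any 1 of the 4 libraries). Spp1, osteopontin, had 12064 and 16448 CPM at day 3, against 25.6 and 12.8 CPM in sham. Spp1 rose by 9.54 ± 0.65 log2 units (adjusted p = 9.04e-05). Tnf had 149 and 78.9 CPM at day 3, against 0.299 and 0.346 CPM in sham. Tnf rose by 8.42 ± 0.73 log2 units (adjusted p = 0.000139). Il33, an alarmin that glia release, had 94.4 and 139 CPM at day 3, against 77.5 and 58.3 CPM in sham. Il33 differed by 0.78 ± 0.38 log2 units (adjusted p = 0.143).

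Of 30 receptors for these ligands 22 rose and none fell (median log2 fold change 2.95). Ccr2 had 20.4 and 3.53 CPM at day 3, against 0.0597 and 0 CPM in sham. Ccr2 rose 684-fold by the depth-corrected ratio of counts (95% counting interval 122 to 27051, adjusted p = 0.00308). Tnfrsf1a, the main TNF receptor of most cells, had 208 and 289 CPM at day 3, against 23.4 and 26.3 CPM in sham. Tnfrsf1a rose by 3.32 ± 0.35 log2 units (adjusted p = 0.000265). Il1r1 had 72.01 and 63.99 CPM at day 3, against 9.44 and 8.51 CPM in sham. Il1r1 rose by 2.92 ± 0.39 log2 units (adjusted p = 0.000699). Lifr, the receptor of LIF, had 21.01 and 10.7 CPM at day 3, against 20.3 and 14.4 CPM in sham (log2 fold change -0.13 ± 0.42, adjusted p = 0.839), with overlap between the groups. Downstream, 24 of 28 genes of JAK-STAT and NF-kB control rose and none fell (1.997); 14 (day 3 replicate 1) and 13 (sham replicate 1) rose with that library left out. Cebpb, a transcription factor of the acute phase, had 1059.9 and 1089.7 CPM at day 3, against 46.1 and 44.04 CPM in sham. Cebpb rose by 4.58 ± 0.43 log2 units (adjusted p = 0.000155). Bcl3, a nuclear partner of NF-kB, had 70.7 and 94.4 CPM at day 3, against 4.72 and 6.03 CPM in sham. Bcl3 rose by 3.94 ± 0.37 log2 units (adjusted p = 0.000162). Stat3 had 274 and 281 CPM at day 3, against 54.1 and 78.6 CPM in sham. Stat3 rose by 2.06 ± 0.39 log2 units (adjusted p = 0.00391). Socs3, its feedback inhibitor, had 427 and 124 CPM at day 3, against 9.91 and 5.73 CPM in sham. Socs3 rose by 5.14 ± 0.85 log2 units (adjusted p = 0.00204). Both day 3 libraries were above both sham libraries in these 4 genes.

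Interferon-stimulated genes rose in 21 of 34 cases and fell in none (median log2 fold change 1.65); 10 (day 3 replicate 1) and 10 (sham replicate 2) rose with that library left out. Zbp1, a sensor of double-stranded nucleic acid, had 14.9 and 19.9 CPM at day 3, against 0.836 and 0.7504 CPM in sham. Zbp1 rose by 4.46 ± 0.39 log2 units (adjusted p = 0.000146). Ifitm3, an antiviral membrane protein, had 613 and 488 CPM at day 3, against 82.7 and 82.8 CPM in sham. Ifitm3 rose by 2.73 ± 0.39 log2 units (adjusted p = 0.00101). Rsad2, viperin, had 24.8 and 7.85 CPM at day 3, against 15.3 and 13.7 CPM in sham (log2 fold change 0.16 ± 0.50, adjusted p = 0.831), so this member overlapped while the other 2 did not. Of 16 genes of MHC class I presentation 8 rose and none fell; 5 (sham replicate 2) rose with that library left out, and 15 with the replicate block. Tap1, a subunit of the peptide transporter, had 33.5 and 35.4 CPM at day 3, against 4.42 and 6.03 CPM in sham. Tap1 rose by 2.72 ± 0.34 log2 units (adjusted p = 0.000542). H2-D1 had 305 and 1184 CPM at day 3, against 51.96 and 413 CPM in sham. H2-D1 differed by 1.68 ± 1.44 log2 units (adjusted p = 0.396, or 0.00131 with the replicate block). Of 7 MHC class II genes 5 rose and none fell; Cd74, the invariant chain, had 245 and 94.9 CPM at day 3, against 3.76 and 2.44 CPM in sham. Cd74 rose by 5.78 ± 0.60 log2 units (adjusted p = 0.000265). Ciita, the class II transactivator, had 2.59 and 0.886 CPM at day 3, against 1.43 and 2.31 CPM in sham. Ciita differed by -0.14 ± 0.69 log2 units (adjusted p = 0.897).

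Complement genes rose in 10 of 15 cases and fell in none (median log2 fold change 3.73). Cfp, properdin, had 55.5 and 56.6 CPM at day 3, against 0.597 and 0.673 CPM in sham. Cfp rose by 6.44 ± 0.44 log2 units (adjusted p = 9.04e-05). C3ar1, the receptor of the C3a fragment, had 175 and 84.9 CPM at day 3, against 2.09 and 2.31 CPM in sham. C3ar1 rose by 5.88 ± 0.72 log2 units (adjusted p = 0.000504). C1qa, a chain of the recognition molecule C1q that microglia make in the brain, had 832 and 328 CPM at day 3, against 48.3 and 39.3 CPM in sham. C1qa rose by 3.73 ± 0.62 log2 units (adjusted p = 0.00204). The groups did not overlap in these 3 genes. C4b had 34.9 and 638 CPM at day 3, against 1.31 and 18.7 CPM in sham. C4b differed by 5.06 ± 2.50 log2 units (adjusted p = 0.147, or 6.8e-05 with the replicate block). For C4b, a chain of component C4, replicate 2 exceeded replicate 1 by over 10 times in each group, and the rise was called with the replicate number in the model and not without it.

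Phagocyte and lysosome genes rose in 25 of 31 cases and fell in none (median log2 fold change 3.48). Gpnmb, a glycoprotein of lipid-laden phagocytes, had 1631 and 723 CPM at day 3, against 2.09 and 1.28 CPM in sham. Gpnmb rose by 9.46 ± 1.23 log2 units (adjusted p = 0.000653). Ctsd, the lysosomal protease cathepsin D, had 12573 and 10246 CPM at day 3, against 395 and 423 CPM in sham. Ctsd rose by 4.80 ± 0.44 log2 units (adjusted p = 0.000146). Plin2, the coat protein of lipid droplets, had 1049.7 and 795 CPM at day 3, against 20.5 and 20.6 CPM in sham. Plin2 rose by 5.49 ± 0.42 log2 units (adjusted p = 0.000126). Both day 3 libraries were above both sham libraries in these 3 genes. Mertk, an engulfment receptor of astrocytes and phagocytes, had 71.3 and 32.3 CPM at day 3, against 31.8 and 55.7 CPM in sham. Mertk differed by 0.24 ± 0.56 log2 units (adjusted p = 0.772). Megf10, an engulfment receptor of astrocytes, had 4.87 and 11.1 CPM at day 3, against 2.63 and 3.19 CPM in sham. Megf10 rose by 1.46 ± 0.43 log2 units (adjusted p = 0.0276, but 0.0918 to 0.281 when day 3 replicate 2, sham replicate 1 or sham replicate 2 was left out). Of the 20 monocyte and macrophage markers 16 rose and none fell, or 80.0% higher against 18.0% of all genes. Of the 13 microglia markers 4 rose and none fell, or 30.8% higher. Of the microglia markers 2 (sham replicate 1) rose with that library left out. Lyz2, the lysozyme of myeloid cells, had 4108 and 3194 CPM at day 3, against 13.1 and 13.6 CPM in sham. Lyz2 rose by 8.10 ± 0.72 log2 units (adjusted p = 0.000146). P2ry12, a receptor of resting microglia, had 87.3 and 42.9 CPM at day 3, against 80.5 and 62.4 CPM in sham. P2ry12 differed by -0.14 ± 0.52 log2 units (adjusted p = 0.8696). Fcrls, another microglia marker, had 621 and 543 CPM at day 3, against 43.6 and 43.2 CPM in sham. Fcrls rose by 3.75 ± 0.40 log2 units (adjusted p = 0.000307). Of 12 neutrophil markers tested 7 rose, none fell and Elane was at 0 in all 4 libraries. Of these markers 4 (sham replicate 2) rose with that library left out; their summed share was 0.02595% and 0.0219% at day 3, against 0.00229% and 0.000896% in sham. Of 14 lymphocyte markers 2 rose, or 14.3% against 18.0% of all genes, and none fell; 0 (day 3 replicate 1), 0 (sham replicate 1) and 0 (sham replicate 2) rose with that library left out. Cd8a was at 0 in all 4 libraries, and the summed share was 0.00202% and 0.000699% at day 3, against 0.000537% and 0.000518% in sham. The immune markers moved with the chemokine, complement, MHC class II and phagocyte genes, and their part in those rises was not tested.

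Of 44 genes of the extracellular matrix 40 rose, 1 fell and 3 did not pass (median log2 fold change 4.72). Col6a3, a chain of collagen VI, had 25.9 and 56.3 CPM at day 3, against 0.0597 and 0.135 CPM in sham. Col6a3 rose by 8.48 ± 0.58 log2 units (adjusted p = 9.04e-05). Tnc, tenascin C, had 75.2 and 72.6 CPM at day 3, against 0.418 and 1.58 CPM in sham. Tnc rose by 6.12 ± 0.66 log2 units (adjusted p = 0.000307). Thbs1, a thrombospondin that activates latent TGF-beta, had 702 and 248 CPM at day 3, against 3.17 and 4.13 CPM in sham. Thbs1 rose by 7.02 ± 0.65 log2 units (adjusted p = 0.000154). The groups did not overlap in these 3 genes; day 3 replicate 1 was the higher day 3 library for Thbs1 and replicate 2 for Col6a3. Eln, elastin, had 129 and 2519 CPM at day 3, against 9.68 and 12.1 CPM in sham (log2 fold change 6.92 ± 1.72, adjusted p = 0.01295, but 0.0796 to 0.0885 when day 3 replicate 2, sham replicate 1 or sham replicate 2 was left out), with the higher day 3 value in replicate 2. Ncan, the brain proteoglycan neurocan, had 23.7 and 22.7 CPM at day 3, against 60.4 and 41.7 CPM in sham. Ncan differed by -1.13 ± 0.51 log2 units (adjusted p = 0.116). Cspg5, another brain proteoglycan, was the member that fell, with 95.1 and 181 CPM at day 3, against 509.95 and 387 CPM in sham. Cspg5 fell by 1.70 ± 0.58 log2 units (adjusted p = 0.0462, but 0.05404 to 0.216 without any 1 of the 4 libraries). Of the 13 fibroblast and meningeal markers 11 rose, none fell, and Dpt and Pi16 did not pass. Matrix genes among these markers include Col1a1, Col1a2 and Col3a1. Dcn, decorin, had 1511 and 3436 CPM at day 3, against 11.05 and 11.4 CPM in sham. Dcn rose by 7.78 ± 0.64 log2 units (adjusted p = 0.000126). Foxc1, a transcription factor of the meninges, had 147 and 116 CPM at day 3, against 26.6 and 21.2 CPM in sham. Foxc1 rose by 2.46 ± 0.50 log2 units (adjusted p = 0.00534). Of 12 pericyte and smooth muscle markers 5 rose, 2 fell and 5 did not pass. That is 41.7% and 16.7%, against 18.0% and 14.2% of all genes, and Pdgfrb and Myh11 are on this list. Pdgfrb, the PDGF receptor of mural cells and fibroblasts, had 175 and 255 CPM at day 3, against 16.1 and 25.8 CPM in sham. Pdgfrb rose by 3.36 ± 0.45 log2 units (adjusted p = 0.000757). Myh11, the myosin of smooth muscle, had 15.3 and 3.74 CPM at day 3, against 57.1 and 156 CPM in sham. Myh11 fell by 3.502 ± 0.69 log2 units (adjusted p = 0.00444). Fibroblast markers moved with the matrix genes, and their part in that rise was not tested.

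Proteases and their inhibitors rose in 24 of 34 cases and fell in 2 (median log2 fold change 4.204); 1 (day 3 replicate 1), 1 (sham replicate 1) and 1 (sham replicate 2) fell with that library left out. Adam8, a sheddase of leukocytes, had 143 and 162 CPM at day 3, against 0.179 and 0.221 CPM in sham. Adam8 rose by 9.51 ± 0.64 log2 units (adjusted p = 9.04e-05). Mmp14, the membrane protease that activates MMP2, had 337 and 630.1 CPM at day 3, against 20.4 and 21.5 CPM in sham. Mmp14 rose by 4.53 ± 0.43 log2 units (adjusted p = 0.000172). The groups did not overlap in these genes. The members that fell were Mmp17, with 4.94 and 14.99 CPM at day 3, against 105 and 118 CPM in sham. Mmp17 fell by 3.47 ± 0.69 log2 units (adjusted p = 0.00482). Timp4, with 23.7 and 74.5 CPM at day 3, against 133 and 235 CPM in sham. Timp4 fell by 1.90 ± 0.65 log2 units (adjusted p = 0.0469, but 0.06401 to 0.208 when day 3 replicate 1, sham replicate 1 or sham replicate 2 was left out). In the kinin and coagulation list 13 of 18 genes rose and none fell (3.26). F3, tissue factor, which astrocytes are known to make, had 198 and 474 CPM at day 3, against 46.1 and 39.1 CPM in sham. F3 rose by 2.98 ± 0.44 log2 units (adjusted p = 0.00121). Tfpi2, a protease inhibitor of the matrix, had 38.7 and 46.7 CPM at day 3, against 0.299 and 0.173 CPM in sham. Tfpi2 rose by 7.63 ± 0.44 log2 units (adjusted p = 9.04e-05). Bdkrb1, the kinin receptor that injury induces, had 2.28 and 2.67 CPM at day 3, against 0.119 and 0.539 CPM in sham. Bdkrb1 rose by 2.76 ± 0.68 log2 units (adjusted p = 0.0121, but 0.0588 with sham replicate 1 left out). Of 27 growth factors and binding proteins 11 rose and 2 fell; 7 (sham replicate 1) and 7 (sham replicate 2) rose with that library left out, while 0 fell with any 1 of the 4 libraries left out. Igf1 had 44.04 and 98.5 CPM at day 3, against 2.69 and 1.15 CPM in sham. Igf1 rose by 5.25 ± 0.78 log2 units (adjusted p = 0.00121). Bdnf fell, with 1.71 and 2.25 CPM at day 3, against 9.44 and 9.48 CPM in sham. Bdnf fell by 2.25 ± 0.75 log2 units (adjusted p = 0.0434, but 0.102 to 0.158 without any 1 of the 4 libraries).

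Stress genes rose unevenly. Of 22 genes of ER stress and the amino acid response 15 rose and 1 fell (median log2 fold change 2.28). Hspa5, the chaperone BiP, had 1494 and 1544 CPM at day 3, against 187 and 176 CPM in sham. Hspa5 rose by 3.07 ± 0.39 log2 units (adjusted p = 0.000568). Pdia4, a disulfide isomerase of the ER, had 217 and 369.9 CPM at day 3, against 48.02 and 40.4 CPM in sham. Pdia4 rose by 2.73 ± 0.38 log2 units (adjusted p = 0.00088). Ddit3, the factor CHOP, was the member that fell, with 22.6 and 18.5 CPM at day 3, against 53.5 and 51.6 CPM in sham. Ddit3 fell by 1.35 ± 0.38 log2 units (adjusted p = 0.0214, but 0.0567 to 0.0813 without any 1 of the 4 libraries). Asns, asparagine synthetase, had 49.5 and 53.2 CPM at day 3, against 58.5 and 68.8 CPM in sham. Asns differed by -0.31 ± 0.28 log2 units (adjusted p = 0.433). Hspa5 and Pdia4 were therefore higher in both day 3 libraries while Ddit3 was lower in both. Among 23 antioxidant genes 9 rose and none fell; 5 (sham replicate 1) rose with that library left out. Of the antioxidant genes 39.1% rose, against 18.0% of all genes. Hmox1, heme oxygenase 1, had 245 and 316 CPM at day 3, against 4.06 and 3.598 CPM in sham. Hmox1 rose by 6.20 ± 0.40 log2 units (adjusted p = 9.04e-05). Slc7a11, the cystine transporter, had 151 and 159 CPM at day 3, against 13.6 and 5.41 CPM in sham. Slc7a11 rose by 4.03 ± 0.53 log2 units (adjusted p = 0.000654). The metallothionein Mt1 had 429 and 423 CPM at day 3, against 764 and 959 CPM in sham. Mt1 differed by -1.02 ± 0.43 log2 units (adjusted p = 0.0956, or 0.0476 with the replicate block). Of 23 genes of cell death and p53 targets 16 rose and none fell; 9 (day 3 replicate 1), 9 (sham replicate 1) and 6 (sham replicate 2) rose with that library left out. Ripk3 had 31.8 and 31.2 CPM at day 3, against 0.0597 and 0.645 CPM in sham. Ripk3 rose by 6.23 ± 0.78 log2 units (adjusted p = 0.000542). Mlkl, its substrate in necroptosis, had 21.6 and 23.5 CPM at day 3, against 0.836 and 2.26 CPM in sham. Mlkl rose by 3.81 ± 0.56 log2 units (adjusted p = 0.001099).

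In energy metabolism 20.8% of the genes of mitochondrial respiration fell, against 14.2% of all genes. Genes of glycolysis and hypoxia passed in both directions, at shares near those of all genes. Of 48 nuclear genes of mitochondrial respiration none rose and 10 fell (median log2 fold change -0.67); 1 (day 3 replicate 1), 2 (day 3 replicate 2), 2 (sham replicate 1) and 2 (sham replicate 2) fell with that library left out, and 19 with the replicate block. Cox8a, a subunit of cytochrome oxidase, had 412 and 374 CPM at day 3, against 2223 and 1648 CPM in sham (log2 fold change -2.30 ± 0.53, adjusted p = 0.009299) and was called in all 5 fits. Atp5b, the catalytic subunit of ATP synthase, had 1207 and 2245 CPM at day 3, against 2265 and 2520.2 CPM in sham. Atp5b differed by -0.47 ± 0.40 log2 units (adjusted p = 0.397). Of 31 genes of glycolysis and hypoxia 6 rose and 3 fell (median 0.32), which is 19.4% and 9.68%, against 18.0% and 14.2% of all genes. Of this list 1 (day 3 replicate 1) fell with that library left out, and 6 with the replicate block. Hif1a had 365 and 275 CPM at day 3, against 42.7 and 66.8 CPM in sham. Hif1a rose by 2.55 ± 0.44 log2 units (adjusted p = 0.00245). Slc16a3, the lactate exporter MCT4, had 41 and 28.7 CPM at day 3, against 2.69 and 1.01 CPM in sham. Slc16a3 rose by 4.28 ± 0.61 log2 units (adjusted p = 0.000974). Hk1, the hexokinase of resting brain, had 143 and 189 CPM at day 3, against 381 and 666 CPM in sham. Hk1 fell by 1.66 ± 0.39 log2 units (adjusted p = 0.00977, but 0.0619 with day 3 replicate 1 left out and 0.0746 with sham replicate 2 left out). Hk2 had 14.1 and 6.07 CPM at day 3, against 1.61 and 1.34 CPM in sham. Hk2 rose by 2.78 ± 0.63 log2 units (adjusted p = 0.00859, but 0.0541 with day 3 replicate 1 left out and 0.06298 with sham replicate 2 left out). The 2 hexokinases thus passed in opposite directions in the fit of all libraries. Of 23 cholesterol synthesis genes Ebp rose (log2 fold change 1.89 ± 0.28, adjusted p = 0.00124), Srebf2, the factor that drives the pathway, fell with 48.4 and 118 CPM at day 3, against 315 and 372 CPM in sham (log2 fold change -2.05 ± 0.45, adjusted p = 0.00742), and 21 did not pass; 2 (day 3 replicate 2) fell with that library left out, and 4 with the replicate block.

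Neuronal genes fell together. Of 20 neuron markers 18 fell and none rose (median log2 fold change -3.25), and Snap25, a protein of synaptic vesicle fusion, had 105 and 136 CPM at day 3, against 1402 and 1138 CPM in sham. Snap25 fell by 3.39 ± 0.36 log2 units (adjusted p = 0.00027). Of 39 voltage-gated channel genes 29 fell and none rose (-3.20), and of 36 transmitter receptor genes 25 fell and 2 rose (-2.80). Of the channels 13 (day 3 replicate 1) and 19 (sham replicate 1) fell with that library left out. Of the receptors 1 (day 3 replicate 1), 1 (day 3 replicate 2), 1 (sham replicate 1) and 0 (sham replicate 2) rose with that library left out, while 11 (day 3 replicate 1), 16 (sham replicate 1) and 14 (sham replicate 2) fell with that library left out. Scn8a, a sodium channel of axons, had 4.303 and 5.86 CPM at day 3, against 48.6 and 45.5 CPM in sham. Scn8a fell by 3.20 ± 0.57 log2 units (adjusted p = 0.00286). Gria1, an AMPA receptor subunit, had 4.62 and 12.02 CPM at day 3, against 110.2 and 162 CPM in sham. Gria1 fell by 4.02 ± 0.78 log2 units (adjusted p = 0.00415). In all of these genes both day 3 libraries lay below both sham libraries. The receptors that rose were P2ry1, with 14.6 and 10.8 CPM at day 3, against 3.88 and 2.58 CPM in sham. P2ry1 rose by 1.98 ± 0.43 log2 units (adjusted p = 0.00699, but 0.0629 with sham replicate 2 left out). Adra2a, with 17.5 and 16.7 CPM at day 3, against 8.18 and 6.599 CPM in sham. Adra2a rose by 1.21 ± 0.39 log2 units (adjusted p = 0.0375, but 0.0939 to 0.177 without any 1 of the 4 libraries). Neuron markers moved with these genes, and their part in the falls was not tested. Of 13 oligodendrocyte markers 3 fell, namely Mbp, Mobp and Ermn, and 10 did not pass (median log2 fold change -0.60). These 3 make up 23.1% of the list, against 14.2% of all genes called lower. Mbp, myelin basic protein, had 1168 and 1126 CPM at day 3, against 9070.2 and 8609.99 CPM in sham. Mbp fell by 2.95 ± 0.44 log2 units (adjusted p = 0.00125). Ermn, a cytoskeletal protein of myelinating cells, had 7.404 and 5.98 CPM at day 3, against 34.3 and 26.3 CPM in sham. Ermn fell by 2.18 ± 0.62 log2 units (adjusted p = 0.0232, but 0.0572 to 0.103 without any 1 of the 4 libraries).

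Among genes of the clock and of the early response, some passed in each direction. The circadian list fell in 29.4% and rose in 5.88%, against 14.2% and 18.0% of all genes. The immediate early list rose in 42.9% and fell in 9.52%. Of 17 circadian genes 5 fell and 1 rose, and the hour of collection is not stated; 8 with the replicate block fell. Cry2, a repressor of the clock, had 19.5 and 28.4 CPM at day 3, against 175 and 189 CPM in sham. Cry2 fell by 2.92 ± 0.37 log2 units (adjusted p = 0.000584). Arntl, its activator BMAL1, had 25.6 and 31.2 CPM at day 3, against 26.2 and 32.7 CPM in sham. Arntl differed by -0.05 ± 0.35 log2 units (adjusted p = 0.931). Of 21 immediate early genes 9 rose and 2 fell; 4 (day 3 replicate 1), 5 (sham replicate 1) and 4 (sham replicate 2) rose with that library left out. Atf3 had 517 and 63.5 CPM at day 3, against 6.75 and 5.64 CPM in sham. Atf3 rose by 5.55 ± 0.99 log2 units (adjusted p = 0.00286). Fos had 1587 and 530.4 CPM at day 3, against 83.9 and 76.3 CPM in sham. Fos rose by 3.72 ± 0.64 log2 units (adjusted p = 0.002503). Day 3 replicate 1 was the higher library in both, as it was for the endothelial markers. Replicate 1 was also the higher library for both genes in sham and in every other group. The endothelial share in sham was higher in replicate 2, at 0.182% and 0.335%. Arc, an early gene of active neurons, had 57.96 and 87.7 CPM at day 3, against 523 and 391 CPM in sham. Arc fell by 2.65 ± 0.48 log2 units (adjusted p = 0.00308). Of 15 endothelial markers 3 rose, or 20% against 18.0% of all genes, and none fell. Of these markers 0 (day 3 replicate 1), 6 (day 3 replicate 2), 0 (sham replicate 1) and 0 (sham replicate 2) rose with that library left out; the part of endothelial RNA in the early genes was not tested. Of 19 Notch and progenitor genes 4 rose and 2 fell, or 21.1% and 10.5%, against 18.0% and 14.2% of all genes. Of this list 2 (day 3 replicate 1) and 1 (sham replicate 1) rose with that library left out, while 0 (day 3 replicate 2), 0 (sham replicate 1) and 0 (sham replicate 2) fell with that library left out. Egfr had 30.6 and 51.9 CPM at day 3, against 4.78 and 9.03 CPM in sham. Egfr rose by 2.57 ± 0.49 log2 units (adjusted p = 0.00403). Hes5, a Notch target, had 11.9 and 10.8 CPM at day 3, against 63.8 and 37.5 CPM in sham. Hes5 fell by 2.16 ± 0.68 log2 units (adjusted p = 0.0337, but 0.0554 to 0.161 without any 1 of the 4 libraries).

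The day 3 values were also set against the neighbouring days in the same fit. These contrasts share the day 3 libraries with the comparison above, and every group holds 2 libraries. Against day 1, 483 genes were higher at day 3 and 75 lower, or 3.09% and 0.480% of genes tested and 3.57% together. Against day 7, 504 were higher at day 3 and 479 lower, or 3.22% and 3.06% and 6.29% together. With 1 library left out the fit called against day 1 239 (day 1 replicate 1), 320 (day 1 replicate 2) or 316 genes (day 3 replicate 2), and with the replicate number as a block 1313. Against day 7 it called 139 (day 3 replicate 1), 593 (day 3 replicate 2), 1 (day 7 replicate 1) or 0 genes (day 7 replicate 2; 2497 at an unadjusted p under 0.05), and 2853 with the block. DESeq2 called 1426 genes against day 1 and 2618 against day 7. Of 24 landmark genes, chosen to follow the groups described above over the days, 6 were called against day 7, and these had adjusted p of 0.0668 to 0.244 without 1 of the day 7 replicates.

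Of the 46 mitosis genes 39 were higher at day 3 than at day 1 and none lower, against 3.09% of all genes called higher, and with 1 library left out the number was 25 (day 1 replicate 1), 24 (day 1 replicate 2) or 23 (day 3 replicate 2). Against day 7, 10 were higher at day 3, and the number was 6 (day 3 replicate 1 left out), 1 (day 3 replicate 2 left out), 0 (either day 7 replicate left out) or 25 (replicate block). Mki67 had 35.7 and 38.5 CPM at day 3, against 0.611 and 1.87 CPM at day 1 and 25.7 and 15.8 CPM at day 7. Mki67 at day 3 differed by 4.85 ± 0.63 log2 units from day 1 (adjusted p = 0.00333) and by 0.84 ± 0.54 log2 units from day 7 (adjusted p = 0.367). Mcm5 had 74.4 and 106 CPM at day 3, against 20.1 and 15.5 CPM at day 1 and 34.2 and 33.6 CPM at day 7. Mcm5 at day 3 differed by 2.35 ± 0.40 log2 units from day 1 (adjusted p = 0.0116, but 0.0545 to 0.0651 when day 3 replicate 2, day 1 replicate 1 or day 1 replicate 2 was left out) and by 1.42 ± 0.39 log2 units from day 7 (adjusted p = 0.0595, or 0.0225 with the replicate block). Ccnd1 had 119 and 194 CPM at day 3, against 75.7 and 104 CPM at day 1 and 28.8 and 18.03 CPM at day 7. Ccnd1 at day 3 differed by 0.80 ± 0.49 log2 units from day 1 (adjusted p = 0.491) and by 2.74 ± 0.52 log2 units from day 7 (adjusted p = 0.0199, but 0.0563 with day 3 replicate 2 left out). Mki67 and Mcm5 were thus higher at day 3 than at day 1, and Ccnd1 was higher at day 3 than at day 7, in the fit of all libraries. Of the 13 microglia markers 10 were higher at day 3 than at day 1 and none lower, against 5 (day 3 replicate 1 left out), 2 (day 1 replicate 1 left out) or 4 (day 1 replicate 2 left out). Of all genes tested 3.09% were called higher. The summed microglia share at day 1, 0.0377% and 0.0378%, was below that of sham, 0.0701% and 0.0806%. The microglia markers moved with the mitosis genes, and their part in the difference of the mitosis genes was not tested. Spp1 had 12064 and 16448 CPM at day 3, against 3349.6 and 2161 CPM at day 1 and 29070.5 and 28423 CPM at day 7. Spp1 at day 3 differed by 2.37 ± 0.48 log2 units from day 1 (adjusted p = 0.0246, but 0.0593 to 0.0952 when day 3 replicate 2, day 1 replicate 1 or day 1 replicate 2 was left out) and by -1.01 ± 0.46 log2 units from day 7 (adjusted p = 0.205). Ccl2 had 66.5 and 31.3 CPM at day 3, against 407 and 215 CPM at day 1 and 16.7 and 14 CPM at day 7. Ccl2 at day 3 differed by -2.67 ± 0.54 log2 units from day 1 (adjusted p = 0.0255, but 0.133 with day 3 replicate 2 left out and 0.105 with day 1 replicate 1 left out) and by 1.67 ± 0.52 log2 units from day 7 (adjusted p = 0.0866, or 0.02497 with the replicate block). Hmox1 had 245 and 316 CPM at day 3, against 846 and 631 CPM at day 1 and 119.9 and 91.2 CPM at day 7. Hmox1 at day 3 differed by -1.40 ± 0.32 log2 units from day 1 (adjusted p = 0.0436, but 0.0643 to 0.177 without any 1 of the 4 libraries) and by 1.41 ± 0.32 log2 units from day 7 (adjusted p = 0.0336, but 0.0593 with day 3 replicate 1 left out and 0.0962 with day 3 replicate 2 left out). Spp1 was higher, and Ccl2 and Hmox1 lower, at day 3 than at day 1. The calls of Ccnd1 and Hmox1 against day 7 did not hold with either day 7 replicate left out.

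Lcn2 had 45.4 and 90.7 CPM at day 3, against 284 and 331 CPM at day 1 and 4.97 and 7.36 CPM at day 7. Lcn2 at day 3 differed by -2.18 ± 0.44 log2 units from day 1 (adjusted p = 0.0255, but 0.0654 to 0.105 when day 3 replicate 1, day 1 replicate 1 or day 1 replicate 2 was left out) and by 3.46 ± 0.47 log2 units from day 7 (adjusted p = 0.0102). Gfap had 1469 and 4143 CPM at day 3, against 443 and 1599 CPM at day 1 and 556 and 359 CPM at day 7. Gfap at day 3 differed by 1.46 ± 0.62 log2 units from day 1 (adjusted p = 0.283) and by 2.62 ± 0.65 log2 units from day 7 (adjusted p = 0.0426, but 0.0536 with day 3 replicate 1 left out and 0.181 with day 3 replicate 2 left out). Serpina3n had 28.7 and 117 CPM at day 3, against 66.3 and 113 CPM at day 1 and 8.13 and 5.56 CPM at day 7. Serpina3n at day 3 differed by -0.29 ± 0.65 log2 units from day 1 (adjusted p = 0.902) and by 3.42 ± 0.72 log2 units from day 7 (adjusted p = 0.02603, but 0.0963 with day 3 replicate 2 left out). These 3 reactive genes were higher at day 3 than at day 7 in the fit of all libraries. None of the 3 calls held with either day 7 replicate left out. Aqp4 had 47.3 and 61.2 CPM at day 3, against 45.7 and 134 CPM at day 1 and 12.1 and 4.77 CPM at day 7. Aqp4 at day 3 differed by -0.73 ± 0.57 log2 units from day 1 (adjusted p = 0.6196) and by 2.70 ± 0.61 log2 units from day 7 (adjusted p = 0.03305, but 0.0714 with day 3 replicate 1 left out and 0.0896 with day 3 replicate 2 left out). Kng1 had 2.02 and 21.2 CPM at day 3, against 0 and 0.372 CPM at day 1 and 20.2 and 40.1 CPM at day 7. Kng1 at day 3 differed by 5.59 ± 1.25 log2 units from day 1 (adjusted p = 0.04499, but 0.0689 to 0.194 when day 3 replicate 2, day 1 replicate 1 or day 1 replicate 2 was left out) and by -1.36 ± 1.01 log2 units from day 7 (adjusted p = 0.444). Kng1 was higher at day 3 than at day 1, and Aqp4 was higher at day 3 than at day 7, in the fit of all libraries. The Aqp4 call did not hold with either day 7 replicate left out. Of all genes tested 3.06% were called lower and 3.22% higher at day 3 than at day 7. Of the 44 matrix genes 23 were lower at day 3 than at day 7 and 1 higher, with 4 lower when day 3 replicate 1 and 0 when either day 7 replicate was left out. Vim, Cd44, Stat3, Socs3, Cxcl10, Cdkn1a, Slc1a2, Gja1, Kcnj10, Aldh1l1, Sox9, Kng2 and Lilrb4 passed neither contrast, with adjusted p of 0.0618 to 0.931. With the replicate block Kng2 was higher at day 3 than at day 1 by 4.76 log2 units (adjusted p = 0.00327) and Lilrb4 by 2.94 (adjusted p = 0.00324). Against day 7 Vim, Cdkn1a, Slc1a2, Kcnj10 and Aldh1l1 were higher at day 3 and Stat3 and Gja1 lower with the block, at adjusted p of 0.0116 to 0.0433.

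**Figure D4:**
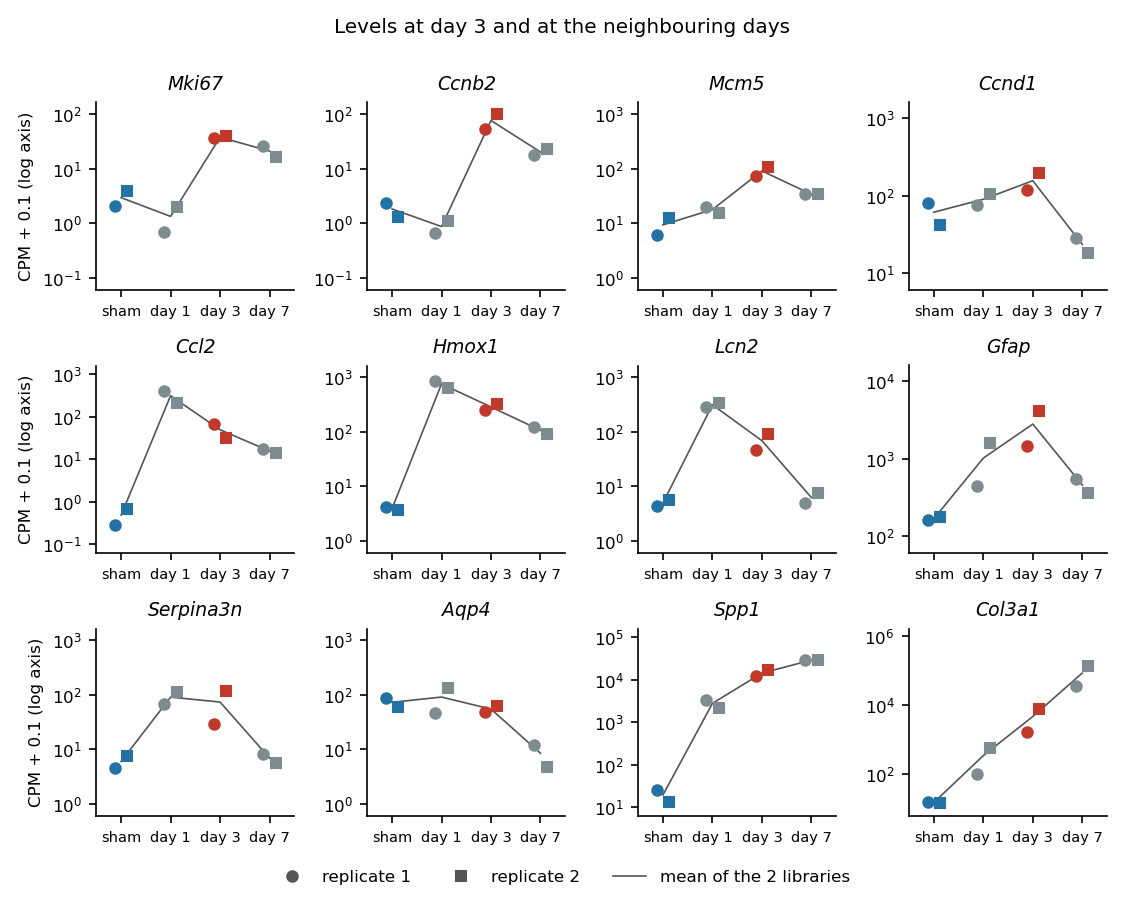
CPM + 0.1 on a log axis of 12 genes in the 2 libraries each of sham, day 1, day 3 and day 7, with replicate 1 as circles, replicate 2 as squares and a line through the means. Mki67 and Ccnb2 are near the sham level at day 1 and high at day 3, Ccl2, Hmox1 and Lcn2 are highest at day 1, and Spp1 and Col3a1 are highest at day 7.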

How the data were processed

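Sorted cortical astrocytes were sequenced as RNA, 2 libraries in each of 6 groups. The authors deposited raw read counts per gene, made with HTSeq (0.6.1), Bowtie2 (2.3.4.2) and the build mm10 per the submitters' processing notes; the annotation, the use of strand and the treatment of reads with several matches are not given in the sources used here. Where strand was not used, reads of overlapping genes cannot be told apart: of the 164 genes named, 22 overlap another coding gene in GENCODE M21, and in Ccnd1, Cebpb and Ctsd over 20% of exon bases are shared. No sample column was left unmapped (0 columns).

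The counts of all 12 libraries were fitted in 1 model with edgeR 4.0.16 (R 4.3.3; TMM factors, filterByExpr with a minimum count of 10, 1 coefficient a group, quasi-likelihood F test, 6 residual degrees of freedom), and p-values were adjusted by Benjamini-Hochberg over the 15635 genes tested, with 0.05 as the threshold. Figures and other tables were made with Python 3.11.15. The error printed after a log2 fold change is its standard error, taken as the size of the change divided by the square root of F. Where all sham libraries held 0 counts the fold is a lower bound against a floor of 3 counts a library; with 1 to 3 sham counts the depth-corrected ratio of counts (summed counts over summed scaled library totals) is given with an exact 95% interval. List medians hold such genes at their bound. Intervals and floors cover counting error only. On simulated counts for the 15635 genes the fit called 27 and 32 of 40 genes changed by -4 and 4 on the log2 scale, 2 and 6 of 40 changed by -2 and 2, and made 2 false calls. The simulation changed far fewer genes than the data called, at day 3 only, and held no effect of the replicate number. Its rates therefore need not hold for the comparison made here.

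The genes named are the 10 largest rises and the 10 largest falls under the rule given with them, members of the 44 lists beside the counts of their list, and 24 landmark genes for the neighbouring days. Comparison, members and lists were chosen with earlier results of these data known. The list members Csf2, Proc, Trac and Meg3 are not analysed here, and a few genes are not reported here. The fit behind the calls has no term for the replicate number, which pairs the libraries only in the alternative with a block. Deviations from the group means of same-numbered libraries correlated at 0.319 to 0.713 in all 15 pairs of groups, above 0.1 in each. The labels do not say what a number marks. Alternatives were DESeq2's size factors and upper-quartile factors, DESeq2 1.42.0's test, no filter, the 4 libraries of a contrast alone, the replicate number as a block, replicate 2 thinned to the depth of replicate 1, and each library of a contrast left out in turn; where that leaves 1 library in a group, it is assumed to vary like the other groups. Promoter sequences and starts are RefSeq's (GRCm38.p6).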

Additional observations from a re-analysis of the deposited data

Results flagged for a closer look

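For 7 landmark genes the change from sham at day 3 differed from that at day 1 in edgeR's test of the difference, where the sham libraries cancel. On the log2 scale, day 3 minus day 1, it was Lcn2 -2.18 (adjusted p = 0.0255), Hmox1 -1.40 (adjusted p = 0.0436), Ccl2 -2.67 (adjusted p = 0.0255), Spp1 2.37 (adjusted p = 0.0246), Mki67 4.85 (adjusted p = 0.00333), Mcm5 2.35 (adjusted p = 0.0116) and Kng1 5.59 (adjusted p = 0.045). For 6 landmark genes it differed from that at day 7, and day 3 minus day 7 was Gfap 2.62 (adjusted p = 0.0426), Lcn2 3.46 (adjusted p = 0.0102), Serpina3n 3.42 (adjusted p = 0.026), Hmox1 1.41 (adjusted p = 0.0336), Ccnd1 2.74 (adjusted p = 0.0199) and Aqp4 2.70 (adjusted p = 0.033). Lcn2 and Hmox1 are in both groups: both were lower at day 3 than at day 1 and higher at day 3 than at day 7. Of the 13 differences, that of Mki67 against day 1 kept its call without any 1 of the 4 libraries compared. No group has the 4 samples that a test for a single deviating sample needs.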

How the results depend on the processing

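The comparison of day 3 with sham called 5028 genes, and 5003 to 5020 with other scaling factors, without the filter or with replicate 2 thinned, 6190 with the DESeq2 test, 3725 with the 4 libraries alone, 6861 with the replicate block and 2931 to 4144 with 1 library left out. Against day 1 the numbers were 558 and, with 1 library left out, 239 to 547; 1313 with the replicate block, 1426 with the DESeq2 test and 0 with the 4 libraries alone, where edgeR gave 1471 at an unadjusted p under 0.05. Against day 7 they were 983 and, with 1 library left out, 0 to 593; 2853 with the replicate block, 2618 with the DESeq2 test and 0 with the 4 libraries alone, where edgeR gave 3278 at an unadjusted p under 0.05. The fit of 4 libraries has 2 residual degrees of freedom. With the replicate block 8 of the 162 genes named gained a call against sham and 0 lost one, and 2 and 9 of the 24 landmark genes gained one against day 1 and day 7; it changed no other call of these genes. With 1 library left out, 11 to 16 of the 162 genes named lost their call against sham. None of the genes named that passed the test changed direction under any alternative run. Among the named genes that did not pass, the sign changed in these, given by the lowest and highest log2 fold change with 1 library left out. For day 3 against sham the ranges were Aldh1l1 -1.42 to 0.72, Arntl -0.28 to 0.12, Ciita -1.13 to 0.38, Eno1 -16.66 to 8.69, Gapdh -4.28 to 6.72, Incenp -0.23 to 0.60, Kcnj10 -1.77 to 0.0916, Lifr -0.74 to 0.20, Mertk -0.48 to 0.70, P2ry12 -0.78 to 0.21, Pttg1 -0.19 to 0.13, Rsad2 -0.93 to 0.69 and Tuba1c -2.76 to 6.86. For day 3 against day 1 the ranges were Aldh1l1 -2.15 to 1.20, Aqp4 -1.32 to 0.33, Cdkn1a -2.18 to 0.26, Serpina3n -1.64 to 0.42 and Socs3 -1.33 to 0.92. For day 3 against day 7 the ranges were Lilrb4 -0.16 to 2.22 and Socs3 -1.24 to 0.51. Other alternatives turned the sign against sham of Aldh1l1 -0.0496 (DESeq2 size factors), -0.0497 (DESeq2 test), -0.18 (replicate block), -0.0484 (upper-quartile factors), Ciita 0.0902 (replicate 2 thinned), Eno1 -0.51 (replicate block) and Tuba1c -0.063 (DESeq2 size factors), -0.063 (DESeq2 test), -0.0512 (upper-quartile factors). The causes were not tested. With 2 libraries a group, the smallest change called against sham in the fit of all libraries was 0.77 on the log2 scale, and the replicate 1 libraries hold fewer counts, which limits genes of low level.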

Other observations

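The day 3 libraries differed from each other in several of the groups described above. The 15 endothelial markers held 0.626% of counts in day 3 replicate 1 and 0.163% in replicate 2, and the 13 fibroblast and meningeal markers held 0.702% and 2.39%. Atf3 had 517 and 63.5 CPM, Ccr2 had 20.4 and 3.53 CPM and Eln had 129 and 2519 CPM, replicate 1 first. In every other group too, Atf3 and Ccr2 were higher in replicate 1 and Eln in replicate 2. The fibroblast and meningeal share was 0.219% and 0.271% at day 1 and 8.17% and 19.8% at day 7, replicate 1 first, but 0.0109% and 0.0101% in sham. The endothelial share was higher in replicate 1 at day 1, and higher in replicate 2 in sham and at day 7. What sets the 2 libraries apart was not tested.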
